A study of Mus musculus with 16 samples.

Results

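The genes described here encode the nuclear-encoded subunits of the 5 complexes of oxidative phosphorylation. Members were taken by gene name, with symbols that start with Nduf (complex I), Sdh (complex II), Uqcr (complex III), Cox (complex IV) or Atp5 (complex V) followed by a subunit letter or number, and with at least 160 counts summed over 16 libraries. Of 46078 genes in the count table, 45143 of them with a symbol, 81 carried such a name and 77 reached the count minimum: 36 for complex I, 4 for complex II, 8 for complex III, 12 for complex IV and 17 for complex V. The 4 names below the minimum were Cox6b2 with 153 counts, Cox6c2 with 141, Cox8c with 1 and Cox7b2 with 0, and the members nearest above it were Cox8b with 539, Cox6a2 with 1220 and Cox7a1 with 1222. The name rule takes in Atp5s, which is not a structural part of ATP synthase, and Ndufa4, which is now counted with complex IV. It leaves out further genes of or tied to the same complexes, and 9 of them, such as Cox4i1, Cyc1 and Ndufab1, are given with the other mitochondrial lists.

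The RNA came from tumours grown from B16F10-GP cells, a derivative of the pigmented mouse melanoma line B16F10, which had been injected in Matrigel on the flanks of female C57BL/6 mice. There were 4 libraries in each of 4 groups. The control group is labelled untreated, whereas the protocol speaks of vehicle. The radiation group received 5 Gy of X-rays once, on day 10, to the right flank. The drug group received QH-II-066, a compound known here by its code name, at 10 mg/kg by intraperitoneal injection daily for 7 days from day 10, and mice given both had the X-rays in the morning and the injection that evening. The labels state neither the flank sampled nor that each library is a separate mouse, so p-values measure the spread between these libraries, which may be technical. Every group shares the same tumour line, host strain and transcriptome capture, in which probes enrich RNA of annotated genes before sequencing.

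Complexes I and II feed electrons from NADH and from succinate to ubiquinone, complex III passes them to cytochrome c, and complex IV gives them to oxygen. Complexes I, III and IV pump protons across the inner mitochondrial membrane, and complex V, the ATP synthase, uses the returning protons to make ATP. Complex II is wholly nuclear-encoded, while the other complexes combine nuclear subunits with a few made inside the mitochondrion. The mitochondrial genome contributed no data here: its 37 genes, 13 of them for such subunits, had 0 counts in the 16 libraries. Complex IV also has subunits with a ubiquitous form and a form used in heart and skeletal muscle, such as Cox7a2 and Cox7a1.

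Promoters of nuclear respiratory genes are known to hold sites for the factors NRF1, ETS family members (among them GABP), YY1 and the estrogen-related receptors. RefSeq promoter windows, build GRCm38.p6, run from 250 bases before a gene's start to 50 bases after it, and 63 of the 77 members had at least 1 window by symbol (68 windows). The letters GCGCATGCG, for NRF1, stood on either strand in 8 of the 68 windows (11.8%) and in 2.25% of all 23295 windows. YY1's ATGGCGGC was in 7 member windows (10.3%), overlapping windows of Ndufa7 among them, and in 2.87% of all windows. By gene it was 6 of 63 members (9.52%) and 3.33% of all genes with a window. The ETS letters CCGGAAGT were in 5 member windows (7.35%) and in 4.94% of all, and TCAAGGTCA, for the estrogen-related receptors, was in 2 (2.94%) and in 0.343% of all. The last 3 motifs were also searched on both strands, and none of the 4 contains another. A match describes letters and not a site in use.

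Upstream sequence, the 250 bases before the start on the gene's own strand, is shown for a pair of members chosen for a motif match among those high with the combination relative to 5 Gy. Atp5e, the highest, and Ndufa5, Ndufb7 and Ndufa3, also high, have windows with none of the 4 motifs. Capitals mark a motif match. Atp5k (chr5:108434400-108434649, minus strand) carries the NRF1 letters on both strands in overlap, the matches beginning 50 and 49 bases before the start. Uqcrh (chr4:116075071-116075320, minus strand) carries the ETS letters on the other strand, beginning 11 bases before the start.
Atp5k: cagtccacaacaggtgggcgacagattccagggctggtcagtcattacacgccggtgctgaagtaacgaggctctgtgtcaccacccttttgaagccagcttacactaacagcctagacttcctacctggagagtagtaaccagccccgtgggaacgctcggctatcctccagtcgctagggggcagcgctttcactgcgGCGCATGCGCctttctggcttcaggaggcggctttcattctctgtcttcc
Uqcrh: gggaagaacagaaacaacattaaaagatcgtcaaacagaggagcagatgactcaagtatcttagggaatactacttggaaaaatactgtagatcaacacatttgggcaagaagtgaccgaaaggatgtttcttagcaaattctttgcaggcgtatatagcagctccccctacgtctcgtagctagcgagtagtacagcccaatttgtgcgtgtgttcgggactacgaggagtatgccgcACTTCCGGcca

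For the ubiquitous and muscle forms of complex IV, which differed most in how they varied, capitals mark CG dinucleotides instead, since none of the 4 motifs lies within these stretches. The pair Cox6a1 and Cox6a2 is not shown, since Cox6a2 had no window. The full window of Cox8a holds the ETS letters across the start, so that the match is not whole in the bases shown. Cox7a2 (chr9:79759854-79760103, minus strand) has 14 CG dinucleotides and its muscle form Cox7a1 (chr7:30183921-30184170, plus strand) has 4. Cox8a (chr19:7217617-7217866, minus strand) has 11 and its muscle form Cox8b (chr7:140900447-140900696, minus strand) has 1. Over the 68 member windows the same 250 bases held a median of 14, from 1 to 35, and Cox8b was the lowest of them, while Cox7a1 was level with Ndufc2, at 4. The median over all windows was 9.
Cox7a2: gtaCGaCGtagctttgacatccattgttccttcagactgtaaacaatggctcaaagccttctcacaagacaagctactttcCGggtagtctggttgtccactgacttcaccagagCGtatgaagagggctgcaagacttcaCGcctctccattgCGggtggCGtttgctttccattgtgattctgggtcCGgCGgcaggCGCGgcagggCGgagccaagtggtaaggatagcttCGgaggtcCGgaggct
Cox7a1: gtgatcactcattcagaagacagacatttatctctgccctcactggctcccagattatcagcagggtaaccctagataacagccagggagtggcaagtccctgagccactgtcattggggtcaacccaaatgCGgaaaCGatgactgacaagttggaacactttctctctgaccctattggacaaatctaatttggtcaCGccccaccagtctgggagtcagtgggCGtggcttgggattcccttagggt
Cox8a: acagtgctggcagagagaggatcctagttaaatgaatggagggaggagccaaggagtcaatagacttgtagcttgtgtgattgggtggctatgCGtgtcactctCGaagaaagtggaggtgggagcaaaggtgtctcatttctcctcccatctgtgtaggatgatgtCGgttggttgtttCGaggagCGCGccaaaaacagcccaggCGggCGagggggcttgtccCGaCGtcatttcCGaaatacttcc
Cox8b: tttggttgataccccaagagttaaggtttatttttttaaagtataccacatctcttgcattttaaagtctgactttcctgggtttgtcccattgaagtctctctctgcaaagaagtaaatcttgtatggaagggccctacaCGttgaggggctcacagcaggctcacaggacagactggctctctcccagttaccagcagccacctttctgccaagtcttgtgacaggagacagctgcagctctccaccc

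All 77 members passed the filter on low counts that left 16101 genes for testing. Levels between genes are compared as RPKM, reads per kilobase of the gene's principal transcript, scaled to library size after correction by the trimmed mean of M-values (TMM). In untreated tumours the median member level was 152 RPKM for complex I, 166 for complex II, 256 for complex III, 448 for complex IV without its 3 muscle forms and 302 for complex V. The most abundant member placed in complex I by name was Ndufa4, at 919.96 ± 176 RPKM (SD, n = 4), followed by Ndufb9 at 353 ± 94.5. Ndufb2 was lowest there, at 13.9 ± 4.77, with an assigned length of 4371 bases. Without length Ndufb4 was lower, at 28.7 CPM against 60.6 CPM for Ndufb2. In complex II, the iron-sulfur subunit Sdhb stood at 394.5 ± 103 and the membrane anchor Sdhc at 51.3 ± 5.34. Uqcr10 led complex III at 651 ± 152, a value within the spread of Uqcrh at 602 ± 177. Cox6b1, at 596 ± 165, and Cox8a, at 516 ± 130.2, could not be told apart at the top of complex IV. In complex V, Atp5g3, which encodes the proton-carrying c subunit of the ring, was at 1009 ± 294 and the catalytic beta subunit Atp5b at 939 ± 74.4, while Atp5s was at 7.45 ± 0.935. Of the other genes for the c subunit, whose mature proteins are the same, Atp5g2 was at 277 ± 50.2 RPKM and Atp5g1 at 40.4 ± 10.1. In CPM, counts scaled to library size with no length, these were close, at 202 ± 36.7 and 190 ± 47.8. The gap in RPKM thus rests on their assigned lengths, 731 and 4715 bases. These levels depend on the length used. Per summed exon length of the count table the complex medians were 98.2, 136, 191, 339 and 159 RPKM, with complex V below complex III. Atp5g3 was then at 334 RPKM, below Atp5mpl at 679, and Sdhd, at 226, was above Sdhb, at 201. Counts of such subunits are uncertain where processed pseudogenes or near-identical copies share reads, and counting took no account of strand, so that an overlapping or antisense gene cannot be separated.

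**Figure D1:**
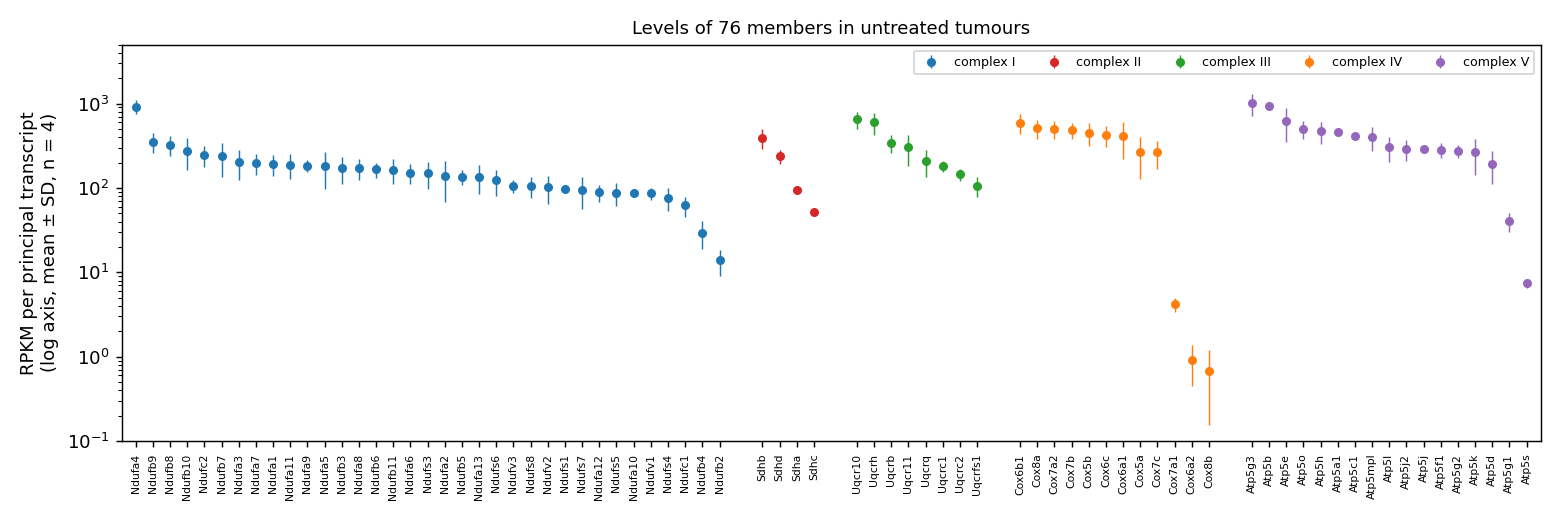
Levels of 76 members in untreated tumours, as RPKM per principal transcript on a log axis, with members on the horizontal axis ordered within each complex. Points are means and bars SD of 4 libraries. Ndufa4, Atp5g3 and Atp5b lie near the top, and the muscle forms Cox7a1 (4.16), Cox6a2 (0.916) and Cox8b (0.67) near the bottom.

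Libraries held from 6994198 counts (combined replicate 4) to 40799942 counts (combined replicate 1). The members took 1.84% ± 0.287 of the counts in untreated tumours (SD, n = 4), 1.65% ± 0.27 after 5 Gy, 2.18% ± 0.437 with QH-II-066 and 2.30% ± 0.315 with the combination, and the groups overlapped in this share. The ranges of 5 Gy, 1.43% to 2.02%, and of the combination, 1.97% to 2.58%, overlapped only through 1 library of each. Markers of the melanocyte lineage were present in every library, 10 of 10 tested, with summed levels of 16125 to 21504 CPM (counts scaled to library size, TMM-corrected) after 5 Gy and 18833 to 27197 CPM elsewhere. Other cell types moved with 5 Gy: the 6 fibroblast markers summed to 406 to 720.1 CPM in untreated tumours and 1782 to 3855 CPM after 5 Gy, and the 6 macrophage markers to 262 to 482 and 712 to 1324 CPM. The 4 endothelial markers summed to 66.8 to 109 CPM untreated and 101 to 208 CPM after 5 Gy, and the 9 adipocyte markers to 21.8 to 138 and 185 to 383 CPM. With the combination the ranges were 549 to 2012 CPM for fibroblasts, 448 to 736 CPM for macrophages, 73.3 to 104.5 CPM for endothelium and 59.4 to 215 CPM for adipocytes, so these lists lay lower than after 5 Gy, with overlap. Their part in the member values was not tested. Skin epithelium markers, with 5 of 10 at 0 in all untreated and 5 of 10 at 0 in all drug libraries, summed to up to 2827 CPM in the radiation group and 1385 in the combined group, and 5 libraries (radiation replicates 2 and 4, combined replicates 2, 3 and 4) had a mean log2 level above 0. In bulk tissue fewer cells of a type and less RNA per cell cannot be told apart.

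After 5 Gy no member passed the test, and the values outside the muscle forms all lay between -0.53 and -0.04. The members' median log2 fold change was -0.30, against -0.08 over all genes tested. Only the 3 muscle forms of complex IV lay above 0, a share of 3.9% of members against 38.2% of all genes. By complex the medians were -0.33 for I, -0.25 for II, -0.31 for III, -0.34 for IV without muscle forms and -0.28 for V. With edgeR's quasi-likelihood test 0 of 77 members were called at an adjusted p under 0.05, where 203 genes were (1.26%, made up of 1.25% higher and 0.00621% lower). At an unadjusted p under 0.05 there was 1 member above (the muscle form Cox6a2, against 12.3% of genes) and 0 below (2.81% of genes), and DESeq2 and limma-voom with sample weights likewise called 0, in fits that called 5.71% and 4.91% of genes. Groups overlapped for every member, while 5.97% of genes were higher and 3.13% lower without overlap. The lowest values by complex were Atp5k, a small subunit at the ATP synthase dimer interface (-0.53 ± 0.37, SE), Ndufa3, an accessory subunit of the membrane arm (-0.51 ± 0.35), and Cox7c (-0.50 ± 0.34), each with an SE near the size of its change. Least changed were Sdha (-0.04 ± 0.09), the flavoprotein that oxidises succinate, and Atp5a1 (-0.05 ± 0.09), the alpha subunit. Without untreated replicate 4, whose members were high within its group, the median was -0.10, and without radiation replicate 3, high in the same sense, it was -0.51, with 14 members at an unadjusted p under 0.05. Without the libraries with skin transcripts it was -0.18.

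With QH-II-066 alone the members were higher than in untreated tumours on average, with a wide spread between libraries. The median log2 fold change was 0.42, against 0.01 over all genes, and 70 of 77 members (90.9%) lay above 0, against 51.6% of all genes. Medians were 0.43 for complex I, 0.13 for II, 0.39 for III, 0.44 for IV without muscle forms and 0.30 for V. The quasi-likelihood test called 0 members and 0 of 16101 genes (0%), with a smallest adjusted p of 0.546 among members. At an unadjusted p under 0.05 there were 2 members, Atp5l (0.69 ± 0.30) and the muscle form Cox7a1 (1.10 ± 0.51), where the share of genes was 3.14% higher and 5.03% lower. DESeq2 called 0 members (0.0774% of genes), and limma-voom with sample weights called 43, all higher, in a fit that called 28.7% of all genes. No member was free of overlap, against 1.37% of genes higher and 1.55% lower. Drug replicate 1 was the highest of the group and drug replicate 3 the lowest in each complex score, and the median was 0.16 without the first and 0.60, with 41 members at an unadjusted p under 0.05, without the second. Without untreated replicate 4 it was 0.61, with 37. The 5 Gy and QH-II-066 comparisons share the untreated libraries.

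The combination, set against the same untreated libraries, gave a median of 0.43 (0.00 over all genes), and 67 of 77 members (87%) lay above 0, against 49.7% of genes. The test called 0 members and 0 genes (0%), with 12 members higher and 1 lower at an unadjusted p under 0.05, against 7.44% and 8.8% of genes. The lower one was Ndufs1 (-0.27 ± 0.12), an iron-sulfur subunit of complex I. DESeq2 (1.14% of genes) and limma-voom (0%) called 0 members too. No member was free of overlap, against 2.53% of genes higher and 1.69% lower. Without untreated replicate 4 the median was 0.66, with 47 members at an unadjusted p under 0.05, and without combined replicate 4, the shallowest library, it was 0.40, with 0. The other single omissions gave from 1 to 26 such members.

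Set against QH-II-066 alone, the combination gave values on either side of 0: a median of 0.01 (-0.02 over all genes), 39 of 77 members (50.6%) above 0 and 46.7% of genes. There were 0 members and 0 genes called (0%), 0 members at an unadjusted p under 0.05 (2.77% of genes higher and 0.882% lower) and 0 by DESeq2 (0.368% of genes) and limma-voom (0%). No member was free of overlap, where 1.29% of genes were higher and 0.621% lower. The farthest members outside the muscle forms were Ndufa2 (0.60 ± 0.46) and Atp5j (-0.22). This median was unsteady: it was 0.35, with 66 members above 0, without the libraries with skin transcripts, 0.26, with 70, with the skin score as a covariate, and -0.13, with 7, in limma-voom.

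The interaction asks whether the log2 difference of the combination from 5 Gy exceeds that of QH-II-066 from untreated. Its median was 0.34 (0.03 over all genes), with 69 of 77 members (89.6%) and 54.5% of genes above 0. The test called 0 members and 0 genes (0%), 0 members at an unadjusted p under 0.05 (1.56% of genes higher, 5.4% lower), and DESeq2 (0.477% of genes) and limma-voom (3.06%) called 0. The SE of a member's interaction had a median of 0.39 and ran from 0.12 to 1.82.

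**Figure D2:**
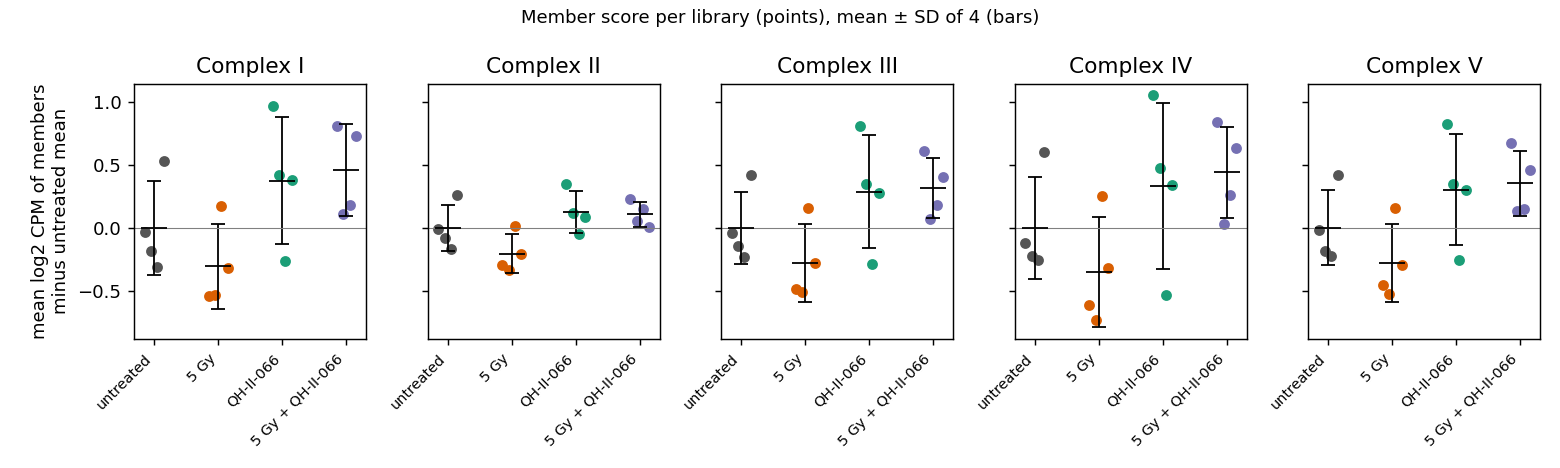
Score of each complex in each library: the mean log2 CPM of its members, muscle forms left out, minus the untreated mean. Points are libraries, and bars the mean and SD of 4. Complex II spans the narrowest range and complex IV the widest, with drug libraries from -0.53 to 1.05.

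The widest separation lay between the combination and 5 Gy alone, the comparison of irradiated tumours with and without QH-II-066. The members were higher with the combination: the median log2 fold change was 0.73, against -0.06 over all genes tested, and 71 of 77 (92.2%) lay above 0, against 44.3% of genes. At an unadjusted p under 0.05 there were 55 members higher and 0 lower, where the shares of genes were 11.6% and 7.9%. None passed adjustment over the 16101 genes, among which 0 genes passed (0%), and the smallest adjusted p of a member was 0.209 in edgeR's quasi-likelihood test. DESeq2 called 6 members, all higher, in a fit that called 0.756% of the genes with an adjusted p: Atp5e, Atp5k, Ndufa2, Ndufa3, Ndufs6 and Uqcrh. Limma-voom with sample weights called 0 (0.522% of genes), with a smallest adjusted p of 0.0503. In 18 members (23.4%) every combined library exceeded every 5 Gy library, against 4.45% of genes, and 0 members showed the reverse, against 3.97%. Over the settings that leave out 1 library each, the median ran from 0.62 to 0.93 and the members at an unadjusted p under 0.05 from 36, without radiation replicate 2 or without combined replicate 1, to 61. Without the libraries with skin transcripts, which leaves 1 combined library, the median was 0.92, with 17 members at an unadjusted p under 0.05.

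Complex I is described first by the subunits shared with the bacterial enzyme. The 7 such core subunits, a split made after the values were seen, had a median of 0.54 with the combination against 5 Gy. The 29 other members placed in complex I by name, Ndufa4 among them, had a median of 0.86. Of these others 27 had an unadjusted p under 0.05, against 4 of the core. The median principal transcript was 1623 bases for the core and 732 for the others, and the difference between the sets was not tested. Ndufa2, an accessory subunit next to the NADH-oxidising end, had 65.7, 62.5, 49.1 and 137 CPM in untreated replicates 1 to 4, 48.6, 55.6, 88.4 and 55.8 CPM after 5 Gy, 197, 113, 64.7 and 124 CPM with QH-II-066, and 211, 79.3, 98.2 and 366 CPM with the combination. Combined replicates 1 and 4 were far above the other combined libraries, and replicate 2 lay below radiation replicate 3, so the groups overlapped. The log2 fold change was 1.6 ± 0.47 (SE, adjusted p = 0.209 in edgeR, called by DESeq2). Ndufs6, an accessory subunit named here because DESeq2 called it, was free of overlap, at 42.4, 46.2, 68.9 and 54.2 CPM after 5 Gy and 143, 77.5, 85.9 and 178 CPM with the combination, a log2 fold change of 1.19 ± 0.32. Ndufs1 ran the other way: 245, 209, 259 and 238 CPM after 5 Gy against 204, 255, 227 and 181 CPM with the combination, overlapping, at -0.13 ± 0.12. Untreated Ndufs1 was at 272, 259, 286 and 230.2 CPM, and with QH-II-066 it was at 237, 238, 268 and 237 CPM. Ndufv1, which binds NADH, gave 0.10 ± 0.14.

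Complex II had the smallest median, 0.38. Its catalytic flavoprotein Sdha was nearly constant, at 273, 271, 285 and 276 CPM untreated, 271, 267, 267 and 268 CPM after 5 Gy, 259, 260.1, 311 and 254 CPM with QH-II-066, and 249, 254, 279.9 and 244 CPM with the combination. The combined and 5 Gy ranges overlapped, and the log2 fold change was -0.06 ± 0.09. Sdhd, a membrane anchor that helps to bind ubiquinone, had 290.0, 267, 242 and 366 CPM untreated, 217, 204, 297 and 237 CPM after 5 Gy, 481, 345, 261 and 319.9 CPM with QH-II-066, and 409.6, 315, 320.4 and 354 CPM with the combination. Every combined library was above every 5 Gy library, with a log2 fold change of 0.55 ± 0.18. The other anchor Sdhc gave 0.21 ± 0.10 and Sdhb 0.54 ± 0.20.

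In complex III the median was 0.67. Uqcrh, the hinge protein on the cytochrome c side, had 334, 278, 242 and 463 CPM untreated, 188, 212, 361 and 229 CPM after 5 Gy, 766, 461, 267 and 426 CPM with QH-II-066, and 707, 381, 394 and 906 CPM with the combination. The lowest combined library, replicate 2, was just above the highest 5 Gy library, replicate 3, and the log2 fold change was 1.27 ± 0.34. Uqcrc2, a large core protein of the matrix side, was at 281, 299, 308 and 213 CPM untreated and 269, 247, 261 and 274 CPM after 5 Gy. It was at 199, 246, 252 and 224 CPM with QH-II-066 and at 178, 277, 269 and 119 CPM with the combination, overlapping, for -0.32 ± 0.21. Within the combined group Uqcrh was highest in replicates 1 and 4, where Uqcrc2 was lowest. Uqcrc1, the other core protein, gave 0.12 ± 0.16, and the Rieske iron-sulfur protein Uqcrfs1 0.33 ± 0.23.

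Complex IV, without its muscle forms, had the largest median, 0.88. Cox7c, a small membrane subunit, was at 135, 114, 105 and 218 CPM untreated, 76.0, 82.9, 144 and 101 CPM after 5 Gy, 340.3, 191, 106 and 193 CPM with QH-II-066, and 262, 157, 162 and 305 CPM with the combination, free of overlap between the last group and 5 Gy (1.13 ± 0.34). Cox5a and Cox5b, which sit on the matrix side, gave 0.97 ± 0.44 and 0.70 ± 0.31. Cox8a, a membrane subunit, was lowest, with 213, 149, 347 and 241 CPM after 5 Gy and 308, 212, 325 and 187 CPM with the combination, which overlap (0.12 ± 0.31). Drug replicate 3 held the lowest Cox8a value of all, 129 CPM.

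Complex V had a median of 0.72. Atp5e, the epsilon subunit of the rotating central stalk, was at 237, 197, 181 and 432 CPM untreated, 140.3, 153, 288 and 191 CPM after 5 Gy, 831, 436, 198 and 400.3 CPM with QH-II-066, and 670.5, 332, 318 and 1055 CPM with the combination. It had the highest log2 fold change of all members, 1.62 ± 0.46, with no overlap between combined and 5 Gy libraries. Atp5k, whose upstream sequence is printed above, was at 99.7, 69.1, 62.5 and 160.2 CPM untreated, 51.9, 63.4, 87.4 and 68.4 CPM after 5 Gy, 242, 123, 74.8 and 133 CPM with QH-II-066, and 191, 116, 129.6 and 280.0 CPM with the combination (1.40 ± 0.37, no overlap). Within each of these groups untreated replicate 4, radiation replicate 3, drug replicate 1 and combined replicate 4 stood highest for Atp5e and Atp5k alike. The catalytic subunits had smaller values. Atp5b, the beta subunit, was at 1668, 1429.6, 1895 and 1687 CPM after 5 Gy and 1401, 1642, 1777 and 1072.5 CPM with the combination (-0.18 ± 0.15). Atp5a1, the alpha subunit, had the narrowest range of all members over the 16 libraries, from 1046 CPM in radiation replicate 2 to 1244 CPM in combined replicate 4 (0.11 ± 0.09). Of the c subunit genes, Atp5g3 gave 0.75 ± 0.29, Atp5g1 0.53 ± 0.21 and Atp5g2 0.32 ± 0.21.

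**Figure D3:**
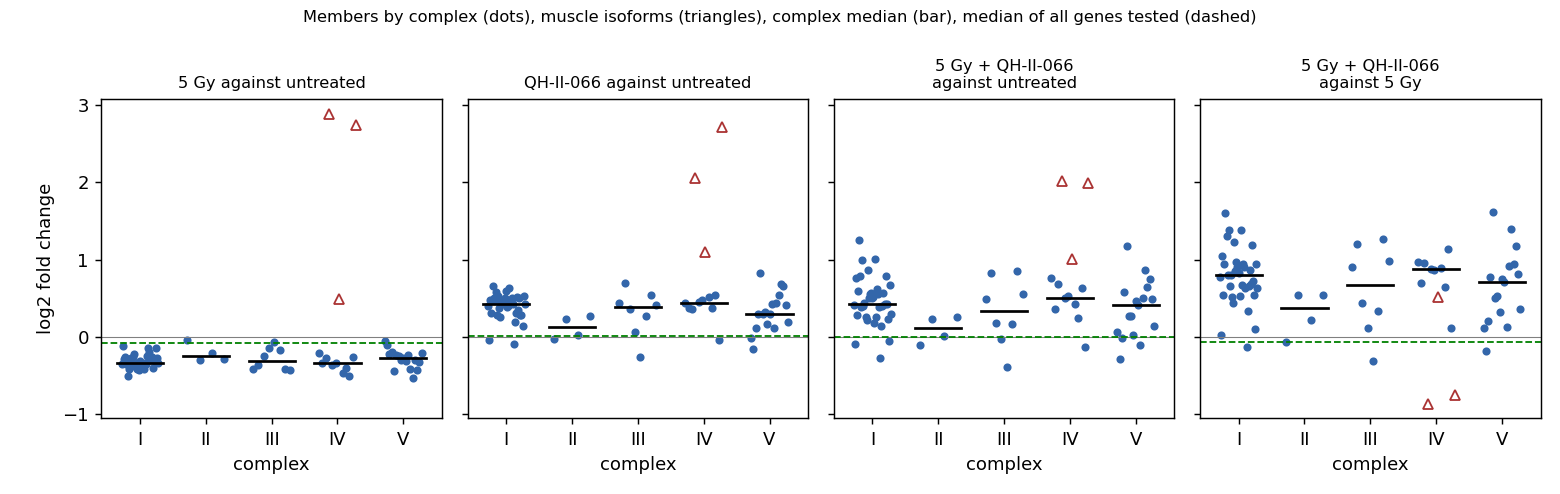
Log2 fold changes of the members by complex in 4 comparisons. Dots are members, open triangles the muscle forms Cox6a2, Cox7a1 and Cox8b, black bars the median of a complex without them, and the dashed line the median of all genes tested. In the last panel the medians run from 0.38 (complex II) to 0.88 (complex IV), and the first 3 panels share the untreated libraries.

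The members also varied together between replicates of the same group. After group means were removed, the correlation of a member with the mean of the others had a median of 0.951 over 74 members and 16 libraries, and it was above 0.9 for 54 of them. The median over pairs of members was 0.888. These points share library depth and scaling, and the values are a description. It was at most 0.9 for the other 20, and below 0 for 4, named here after their values were seen: Sdha (-0.61), Uqcrc2 (-0.60), Ndufs1 (-0.46) and Atp5b (-0.14), with principal transcripts of 1896 to 2900 bases. Ndufa10 (0.30), Atp5j (0.38) and Atp5g2 (0.46) came next. Untreated replicate 4 was above its group in each complex score, as was radiation replicate 3, and drug replicate 3 was below its group, so the span within a group reached the size of the differences between groups. The SD of the score within groups was 0.40 for complex I, 0.16 for II, 0.33 for III, 0.48 for IV and 0.33 for V, on the log2 scale. Outside the list, the genes whose log2 CPM followed the member mean most closely over the 16 libraries were Polr1d (r = 0.994), Park7 (0.993), Sem1 (0.992), Atp6v1g1 (0.992) and the complex IV subunit Cox4i1 (0.992).

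Gene length was checked because the members are short. Their median summed exon length, from the count table, was 1465 bases, against 3527 over all genes tested, and the median of their principal transcripts in the GENCODE vM21 annotation was 838 against 2975 bases. A gene length slope was computed for each library, fitted over the 9696 genes whose mean log2 CPM exceeded 3 as the change in a library's log2 CPM, relative to the other libraries, per doubling of gene length, so that a library with a negative slope is rich in short genes. Group means of the slope were 0.07 ± 0.17 untreated, 0.11 ± 0.11 after 5 Gy, -0.09 ± 0.16 with QH-II-066 and -0.09 ± 0.12 with the combination (SD, n = 4). Within groups the member mean and the slope had r = -0.96 over the 16 libraries. With the slope as a covariate, an alternative setting, the median of members with the combination against 5 Gy went from 0.73 to 0.19. The medians against untreated went from 0.42 to -0.03 for QH-II-066 and from 0.43 to 0.02 for the combination. With the covariate 65 of 77 members still lay above 0 for the combination against 5 Gy. Against untreated it was 19 for QH-II-066 and 43 for the combination. The medians of all genes were 0.00, -0.02 and -0.03 in that order, and the share of all genes above 0 is not given. For 5 Gy the median was -0.19 with the covariate. The smallest adjusted p of a member was then 0.0962 in edgeR, with 0 members called in a fit that called 1.63% of genes. For the interaction the median was 0.27. The slopes of the groups overlapped, from -0.05 to 0.20 after 5 Gy and from -0.25 to 0.02 with the combination.

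Within the list, shorter members had the larger differences at the median, with exceptions. With the combination against 5 Gy, the 46 members with a principal transcript of up to 1000 bases had a median of 0.87, and the 24 of over 1000 and up to 2000 bases 0.54. The 7 longer ones had a median of 0.11, from -0.13 to 0.97. Across the 74 members without muscle forms the log2 fold change had r = -0.59 with log2 transcript length and -0.44 with log2 summed exon length, where members are not independent replicates. For 5 Gy against untreated the first of these was 0.59. Genes outside the list shifted in the same order with length, by less: in the shortest of 5 equal classes of principal transcript length, 66 to 1693 bases, the median of other genes was 0.29 and that of the 66 members there 0.78. In the class from 1694 to 2543 bases the medians were 0.02 and 0.07, the latter over 6 members. From 3477 to 4916 bases they were -0.19 and 0.75, the latter over 2 members. These were Ndufb2 (0.97 ± 0.35) and Atp5g1 (0.53 ± 0.21). Their lengths come from the annotation, and whether those long forms were the ones expressed was not tested. GC content differed little, at a median of 51.5% for members and 50.5% for all genes tested.

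**Figure D4:**
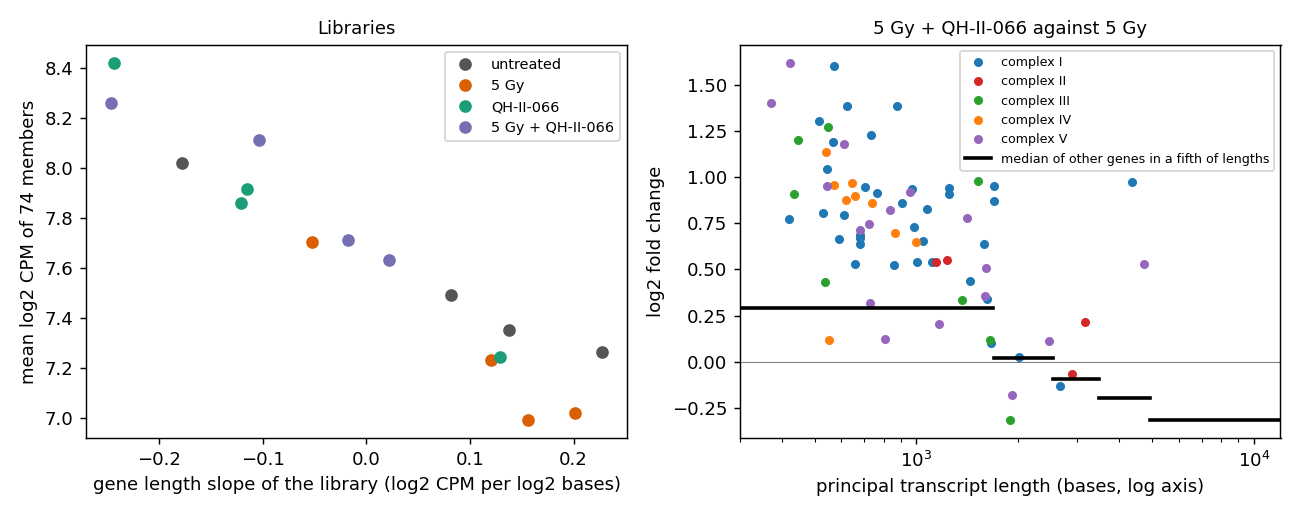
Left, the mean log2 CPM of 74 members against the gene length slope of each of the 16 libraries, coloured by group. Right, the log2 fold change of each member, combination against 5 Gy, against principal transcript length on a log axis, with black lines at the median of other genes in 5 classes of length (0.29 in the shortest). Libraries with a lower slope tend to have a higher member mean. Many of the longer members lie nearer 0, but the 2 with the longest assigned transcripts, Ndufb2 (0.97) and Atp5g1 (0.53), do not. Whether those long forms were the ones expressed was not tested.

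The 3 muscle forms behaved apart from the rest. Cox6a2 was at 0.267, 0.50, 0.704 and 1.02 CPM in untreated replicates 1 to 4, 1.10, 9.75, 0.338 and 7.36 CPM after 5 Gy, 0.231, 0.468, 0.809 and 8.81 CPM with QH-II-066, and 0.568, 0.705, 3.91 and 5.36 CPM with the combination. The high libraries were radiation replicates 2 and 4, drug replicate 4 and combined replicates 3 and 4. The other treated libraries, at 0.231 to 1.10 CPM, lay in or just beyond the untreated range of 0.267 to 1.02 CPM. The log2 fold change after 5 Gy was 2.89 ± 1.20 (adjusted p = 0.252 in edgeR). Cox8b was highest in the same libraries. It ran from 0 counts in combined replicate 1, which allows up to 0.0811 CPM for counting error only, to 4.88 CPM in drug replicate 4. Drug replicate 3 had 1.13 CPM of Cox8b, with a skeletal muscle marker score of 0.21 and the highest adipocyte marker score, 6.22. Cox7a1 ranged from 0.925 CPM in radiation replicate 1 to 6.74 CPM in drug replicate 4. A score of 13 tested skeletal muscle markers was highest in the same 5 libraries. All 14 markers of the list summed to up to 3056 CPM in the radiation group and at most 136 CPM in the untreated group. Over 16 libraries the correlation of the adipocyte score with the log2 level was 0.50 for Cox6a2, 0.67 for Cox8b and 0.25 for Cox7a1. That of the muscle score was 0.95 for Cox6a2, 0.79 for Cox8b and 0.46 for Cox7a1. For the partners Cox6a1, Cox8a and Cox7a2 the correlation with the muscle score was -0.19, -0.38 and -0.38. Cox6a2 made up 7.48% of the counts of the Cox6a1 and Cox6a2 pair in radiation replicate 2 and 0.0461% in drug replicate 1. Radiation replicates 2 and 4 and combined replicates 3 and 4 were also among the libraries with skin transcripts. The part of muscle, fat or skin tissue in these values was not tested.

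**Figure D5:**
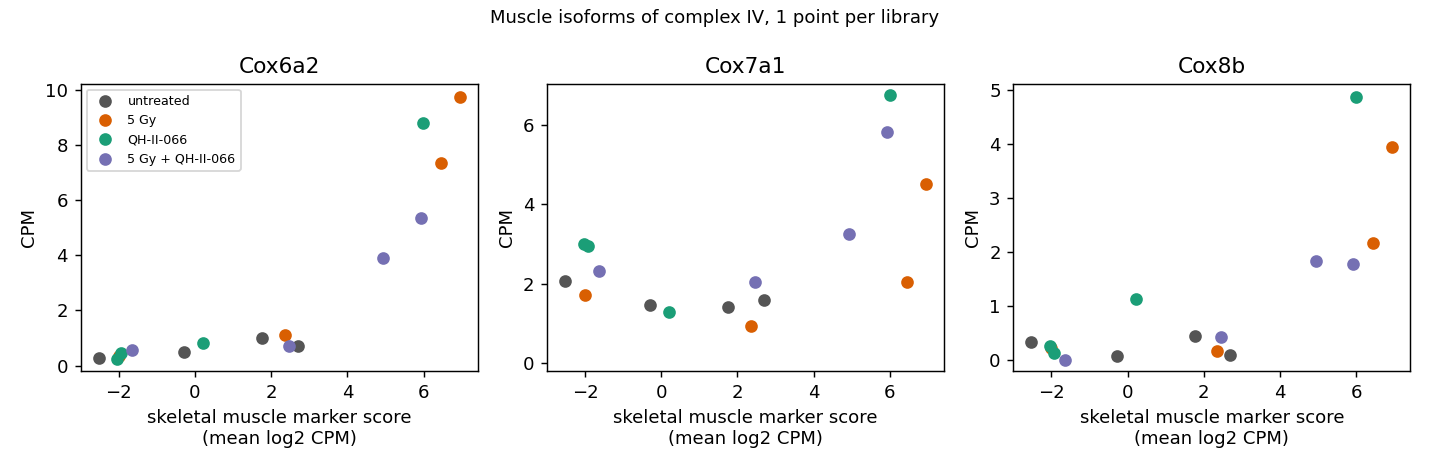
CPM of the muscle forms Cox6a2, Cox7a1 and Cox8b against the skeletal muscle marker score, the mean log2 CPM of its markers, with 1 point per library. The 5 libraries with scores above 4 are radiation replicates 2 and 4, drug replicate 4 and combined replicates 3 and 4, and they hold the highest Cox6a2 values, 3.91 to 9.75 CPM.

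Other genes of the respiratory chain and its supply were followed in lists. No gene of these lists was called in any comparison by the quasi-likelihood test. With the combination against 5 Gy, 11.6% of all genes tested were higher and 7.9% lower at an unadjusted p under 0.05, and 44.3% lay above 0. In that comparison, the 9 listed genes of or tied to the complexes but outside the name rule had a median of 0.69. Of these, 4 had an unadjusted p under 0.05. Among them Cox4i1, the large nuclear subunit of complex IV, gave 1.06 ± 0.35, and Atpif1, the inhibitor of ATP synthase, 0.75 ± 0.26. Of 44 tested assembly factors 17 had an unadjusted p under 0.05, at a median of 0.25, and the highest of those named were Pet100 (1.59 ± 0.40) and the copper carrier Cox17 (1.57 ± 0.44), both for complex IV. Of mitochondrial ribosomal proteins 70 of 74 lay above 0, 41 of the list at an unadjusted p under 0.05, with a median of 0.45. Of cytosolic ribosomal proteins it was 78 of 81 and 61, with a median of 0.73 and Rpl38 at 1.52 ± 0.43. The median principal transcript was 878 bases for cytosolic ribosomal proteins, 1335.5 for mitochondrial ones and 1851.5 for assembly factors.

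The citric acid cycle, which supplies NADH and succinate, had a median of -0.02 over 16 genes with 1 at an unadjusted p under 0.05, Pdha1 of pyruvate dehydrogenase (-0.32 ± 0.14). Glycolysis had -0.09 over 14 genes. Against untreated tumours the combination gave a glycolytic median of -0.24, with 0 of 14 genes above 0 against 49.7% of all genes. Among the 14 were Pgam1 (-0.77 ± 0.24, adjusted p = 0.298 in edgeR) and Gapdh (-0.53 ± 0.20). Of 12 tested regulators of respiratory genes, 6 lay above 0 with the combination against 5 Gy, against 44.3% of all genes. Their median was -0.01, and 1, Gabpa (-0.37 ± 0.15), had an unadjusted p under 0.05, where 7.9% of all genes were lower. Ppargc1a, a coactivator of mitochondrial genes, gave -0.90 ± 0.28 with QH-II-066 against untreated (adjusted p = 0.546 in edgeR), with untreated libraries at 144, 235, 302 and 100.4 CPM and drug libraries at 91.3, 127, 111 and 87.7 CPM, which overlap. Ndufa4l2, a paralog of Ndufa4 induced in low oxygen, was 1.41 ± 0.35 higher after 5 Gy without passing the threshold (adjusted p = 0.0553 in edgeR), at 11.4, 13.6, 16.1 and 7.43 CPM against 3.51, 7.08, 2.05 and 5.63 CPM in untreated tumours, with no overlap.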

How the data were processed

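RNA of 16 tumour libraries was measured after transcriptome capture on a HiSeq instrument, per the labels' protocols. The submitters' processing notes name STAR 2.4.1a, featureCounts, edgeR and build mm10. The deposited table holds raw counts of read pairs for each gene, made by featureCounts 1.6.0 over annotated exons with no strand option, per the file headers, and the table gives each gene's summed exon length. The 4 groups were fitted together, as group means over all libraries, with edgeR 4.0.16 under R 4.3.3. Low genes were removed with filterByExpr, libraries were scaled by TMM, and contrasts were tested by the two-sided quasi-likelihood test with robust dispersions, with Benjamini-Hochberg adjustment over 16101 genes and a threshold of 0.05. The script was tested on simulated counts. CPM are TMM-scaled, and scores use log2 CPM with a prior count of 2. Depth limits precision most in combined replicate 4, where 3 counts correspond to 0.446 CPM. Length and promoter checks used GENCODE vM21 and RefSeq. A gene's principal transcript was the coding transcript with the best principal rank in GENCODE vM21, the longest where several shared that rank. Whether that form was the one expressed was not tested.

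The members and gene lists were chosen with earlier results of these data known. Members named are the highest and lowest of each complex in each comparison, the 5 widest and 5 narrowest in range, a list of core subunits and isoform pairs, the members nearest the count minimum and, from each pathway list, up to 4 genes with the smallest p. Of these, 1 member is not reported here by name and is left out of the plot of levels. Alternatives were RLE scaling, DESeq2 1.42.0, limma-voom 3.58.1 with sample weights, no filter and 1 CPM in 4 libraries, the replicate block, the compared groups alone, libraries left out, and covariates for muscle, skin and gene length. The transcript length settings were added after the data had been seen.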

Additional observations from a re-analysis of the deposited data

Results flagged for a closer look

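In each group of 4 libraries, the highest and the lowest value of each of the 36 named members and of 6 scores were compared with the rest, and 15 of 168 such groups had a library set far apart by Dixon's 95% criterion, where chance flags about 1 in 20. Many of the named members had been picked as extremes. Untreated replicate 4 stood high in 7 of these: the complex IV score (log2 CPM 8.70, the others 7.84 to 7.97), Cox5a (304 CPM, the others 123 to 131), Cox5b (563, others 317 to 349.7), Cox6a1 (405 CPM, others 172 to 190.7), Atp5g3 (1045 CPM, others 586 to 649), Uqcrc1 (364 CPM, others 271 to 281) and Ndufa10 (182 CPM, others 173 to 175). Radiation replicate 3 stood high in Atp5c1 (520.1 CPM, others 377 to 399), Ndufv1 (156 CPM, others 119 to 122) and Uqcrfs1 (176 CPM, others 111 to 114). Drug replicate 3 stood high in Ndufs1 (268 CPM, others 237 to 238) and Sdha (311 CPM, others 254 to 260.1). Drug replicate 4 stood high in Cox6a2 (8.81 CPM, others 0.231 to 0.809). Combined replicate 1 stood high in Atp5g1 (294 CPM, others 202 to 215), and combined replicate 4 low in Atp5j (133 CPM, others 245 to 246).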

How the results depend on the processing

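The number of members called stayed at 0 in each comparison under every alternative except 2: limma-voom with sample weights called 43 for QH-II-066 against untreated, and DESeq2 called 6 for the combination against 5 Gy. With the gene length slope as a covariate, the median log2 fold change of members was -0.0341 for QH-II-066 against untreated and 0.0215 for the combination against untreated. It was 0.19 for the combination against 5 Gy, -0.19 for 5 Gy against untreated and 0.27 for the interaction. The slope on principal transcript length was a setting chosen after seeing the data. With it the medians were -0.0503 for QH-II-066 and 0.0151 for the combination against untreated, and 0.18 for the combination against 5 Gy. Leaving out 1 library at a time called 0 members throughout. In the fits with libraries left out, the share of all genes at an unadjusted p under 0.05 is not given. Member counts at that level in those fits are description only. The medians then ran from -0.51 to -0.10 for 5 Gy and from 0.16 to 0.61 for QH-II-066 against untreated, from 0.32 to 0.66 for the combination against untreated, from 0.62 to 0.93 against 5 Gy, from -0.13 to 0.27 against QH-II-066, and from 0.12 to 0.59 for the interaction. The lowest and highest came without untreated replicate 4 or radiation replicate 3 (5 Gy), drug replicate 1 or untreated replicate 4 (QH-II-066), combined replicate 1 or untreated replicate 4 (combination against untreated), combined replicate 1 or radiation replicate 3 (against 5 Gy), drug replicate 3 or drug replicate 1 (against QH-II-066), and untreated replicate 4 or drug replicate 1 (interaction). Without the 5 libraries with skin transcripts, where the combination keeps 1 library assumed to vary like the others, the medians were 0.92 against 5 Gy and 0.78 against untreated. With a covariate for the muscle score the median against 5 Gy was 0.72, and with the skin score 0.79. The skin score moved some of the others more: to -0.11 for 5 Gy and 0.69 for the combination against untreated, and to 0.26 for the combination against QH-II-066. It moved QH-II-066 against untreated only from 0.42 to 0.43, and the interaction from 0.34 to 0.40. Whether replicate numbers pair the samples was not settled, and the main fit did not use them. Of 24 same-numbered pairs of libraries 12 correlated above 0.1, from -0.43 to 0.48. The median was 0.10 for same-numbered pairs and -0.04 for other pairs, and 8 of 16 libraries correlated best with their own number. With the replicate block the test called 0 members in each comparison, with medians of -0.24, 0.41, 0.44, 0.66, 0.04 and 0.29 in the order given. A fit of the compared groups alone has no value for the interaction, and it tested 76 members for 5 Gy against untreated. The cause of these shifts was not tested.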
